A study of Chlamydomonas reinhardtii with 20 samples.

Results

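The heme oxygenase mutant hmox1 of the green alga Chlamydomonas reinhardtii, supplied with the bilin biliverdin (BV), was set against the wild type 4A+ supplied with the same bilin. The comparison used 4 of the 20 RNA-seq libraries in the series, chosen by their labels for strain, BV and light. The groups were hmox1 with 0.1 mM BV and 4A+ with 0.1 mM BV, with 2 libraries each, and both had been in white light for 4 h. It addressed which strain differences were present when the product of the missing enzyme was supplied from outside.

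The same strains without BV at 4 h, with 2 libraries of hmox1 and 2 of 4A+, gave the strain difference without bilin. Libraries of ho1C1 and ho1C2, complemented lines of hmox1 sampled without BV, gave a second set of values against 4A+ without BV. Every culture, the 4A+ cultures included, was grown heterotrophically in darkness on acetate medium that held methanol, with or without BV, before the light. The sample labels give 4 h of light, which is followed here, whereas the protocol of the treatment mentions just a shorter exposure and the series' design calls the light low. The sources used here do not say how the mutation was made, whether hmox1 is 1 clone or how close its background is to 4A+. Libraries are labelled as biological replicates without further detail, and p-values accordingly reflect only how much these libraries varied.

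Bilins are linear tetrapyrroles. Heme oxygenase opens the ring of heme to give biliverdin, and a ferredoxin-dependent reductase then turns biliverdin into phycobilins. Chlamydomonas has no phytochrome, the bilin-binding photoreceptor of plants, and its plastid bilins are known to influence the expression of nuclear genes as cells move from dark to light. Biliverdin added to the medium bypasses the heme oxygenase step.

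Transcript levels were given for 17737 gene IDs as RPKM, reads scaled to gene length and to library total. The files pair no ID with a gene name, and genes are therefore called by ID, with no function stated for any of them. HMOX1 itself was not analysed here, and the strain labels were therefore not checked against the targeted gene. Read totals are unknown, but steps in the low values put the relative depth of the hmox1 libraries with BV at 0.67 and 1.55 and that of the 4A+ libraries with BV at 1.20 and 1.04. Replicate libraries correlated at 0.9929 to 0.998 across genes on the log2 scale, and the hmox1 pair without BV was the least alike.

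With BV in the medium, hmox1 still differed widely from 4A+. Of 13871 genes tested, 6923 (49.9%) differed, of which 4843 (34.9%) were higher and 2080 (15%) were lower in hmox1 at an adjusted p under 0.05 (limma on log2(RPKM + 1), Benjamini-Hochberg over all genes tested). At least 2-fold, which is a difference of 1 or more on that log2 scale, 678 genes (4.89%) differed, 540 (3.89%) higher and 138 (0.995%) lower. In all 540 and all 138 the hmox1 libraries did not overlap the 4A+ libraries. The genes were chosen on these same libraries, which favours such a gap, so it adds no separate support. Among the higher genes 81 passed a log2 difference of 2 and 22 passed 3, while among the lower genes 18 passed −2 and 8 passed −3. The median difference over all genes was 0.10. Scaling the libraries by the median ratio moved it to −0.02 and gave 414 genes higher and 201 lower at 2-fold, and it gave 3403 higher and 3671 lower at any size. The number of genes past 2-fold also depended on the pseudocount, with 1159 higher and 264 lower at 0.1 RPKM and 175 higher and 50 lower at 5 RPKM.

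**Figure D1:**
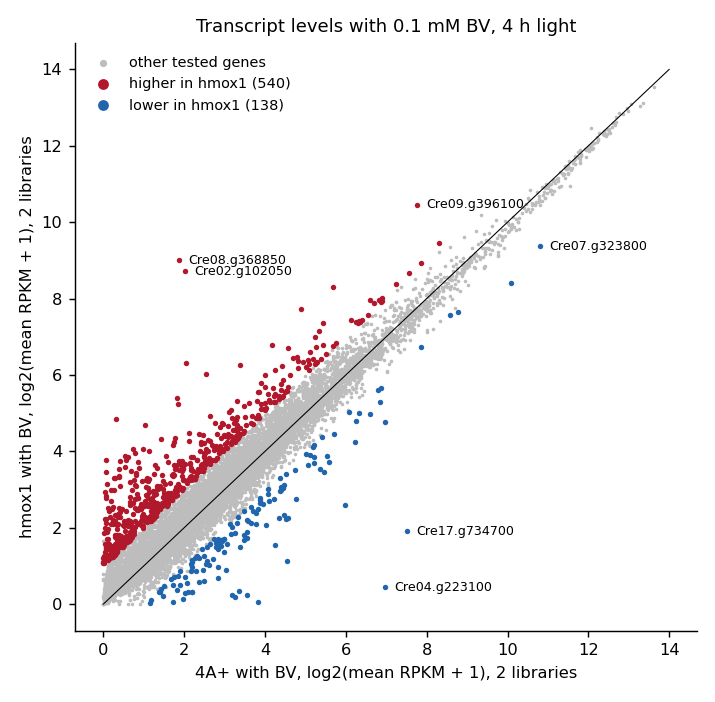
Mean level of each tested gene, as log2(RPKM + 1), in hmox1 with BV (vertical axis) against 4A+ with BV (horizontal axis), with the 540 genes higher and the 138 genes lower at 2-fold in colour. Cre08.g368850 and Cre02.g102050 lie farthest above the diagonal and Cre04.g223100 and Cre17.g734700 farthest below it.

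The 540 higher genes together made up 2.10% and 2.09% of the summed RPKM in the hmox1 libraries with BV, and 0.637% and 0.673% in the 4A+ libraries with BV. These shares describe genes chosen on the same values. The libraries without BV do not enter the difference that chose these genes. In them the same genes made up 1.22% and 1.16% in hmox1 and 0.439% and 0.441% in 4A+. Within both strains the share was larger with BV than without it. For hmox1 this is favoured by the choice of genes with high values in hmox1 with BV. Since the samples are whole cultures, fewer cells of a kind and less RNA per cell cannot be told apart.

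Differences past 2-fold were spread over genes of all levels. Among 695 genes with a mean of 100 RPKM or more over the 4 libraries with BV, 23 were higher and 5 were lower, and among 1588 genes with a mean under 1 RPKM, 38 were higher and 6 were lower. None of the 30 genes with the highest group mean in either strain passed 2-fold, and their log2 differences ran from −0.24 to 0.39. Gene IDs are grouped by a chromosome or scaffold prefix, and the share past 2-fold ran from 3.08% in Cre07 to 7.49% in Cre09.

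The largest difference belonged to Cre08.g368850. It stood at 548 and 475 RPKM in hmox1 with BV, against 2.73 and 2.64 RPKM in 4A+ with BV. Both hmox1 libraries lay far above both 4A+ libraries, a log2 difference of 7.12 (SE 0.45, limma adjusted p = 2.01e-07). Without BV the gene was at 5.6 and 4.94 RPKM in hmox1 and at 0.03 and 0.23 RPKM in 4A+. It was thus high in the mutant only where BV was present, and it was higher in hmox1 than in 4A+ under both conditions. The change of the strain difference with BV was 4.64 (limma adjusted p = 0.000246), but with a pseudocount of 0.1 RPKM it was 2.82 with an adjusted p of 0.0559.

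Cre02.g102050 came next, at 437 and 404 RPKM in hmox1 with BV against 3.08 and 3.02 RPKM in 4A+ with BV. The groups were far apart, with a log2 difference of 6.70 (SE 0.06, limma adjusted p = 3.94e-22). Without BV its level was 19.1 and 20.8 RPKM in hmox1 and 3.57 and 3.43 RPKM in 4A+, a difference of 2.22, so the strain difference was larger by 4.48 with BV (limma adjusted p = 2.07e-16). In 4A+ the level was nearly the same with and without BV, whereas in hmox1 it was much higher with BV.

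Several further genes were low in 4A+ under both conditions and much higher in hmox1 with BV than without it. The gene g4403 had 10.1 and 9.70 RPKM in hmox1 with BV, against 0.04 and 0.04 RPKM in 4A+ with BV, and without BV it had 0.28 and 0.14 RPKM in hmox1 and was listed at 0 in both 4A+ libraries. The gene g6373 was at 28.9 and 26.3 RPKM in hmox1 with BV, against 0.24 and 0.26 RPKM in 4A+ with BV, and without BV at 1.90 and 1.98 RPKM in hmox1 and 0.31 and 0.28 RPKM in 4A+. Cre14.g616650 stood at 80.5 and 75.6 RPKM in hmox1 with BV, against 3.11 and 3.16 RPKM in 4A+ with BV, and without BV at 10 and 8.91 RPKM in hmox1 and 2.05 and 1.99 RPKM in 4A+. The log2 strain differences with BV were 3.39, 4.51 and 4.26 for these genes, against 0.27, 1.18 and 1.79 without BV. The same pattern held for g9826, Cre10.g420850, Cre06.g260550 and Cre10.g432250, whose log2 strain differences were 3.33 to 3.66 with BV and 0.75 to 1.21 without it.

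Cre07.g339300 and g2381, like several of the genes above, had a strain difference past 2-fold in both conditions, but it changed less with BV. Cre07.g339300 was at 12.8 and 12.4 RPKM in hmox1 with BV, against 0.04 and 0.06 RPKM in 4A+ with BV, and without BV at 9.54 and 7.75 RPKM in hmox1 and 0.06 and 0.03 RPKM in 4A+. In every 4A+ library it was close to 0. The log2 difference was 3.69 with BV (SE 0.09, limma adjusted p = 3.62e-16) and 3.20 without it. The gene g2381 stood at 64.6 and 64.7 RPKM in hmox1 with BV, against 4.77 and 4.85 RPKM in 4A+ with BV, and without BV at 133 and 111 RPKM in hmox1 and 15.4 and 16.9 RPKM in 4A+. Its level was lower with BV in both strains, and hmox1 was above 4A+ by 3.50 with BV and 2.84 without it on the log2 scale. The change of the strain difference with BV was small but called for both genes, at 0.49 and 0.66 (limma adjusted p = 0.00421 and 0.00459). For g2381 the call was lost with a pseudocount of 5 RPKM (0.25, limma adjusted p = 0.237).

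Taking the 12 genes with the largest positive differences, all 12 were also called higher in hmox1 without BV, 8 of them by 2-fold, and in all 12 the strain difference was larger with BV. That direction is favoured by the way these genes were chosen, since the libraries with BV enter both tests. In 11 of the 12 the mean of hmox1 was higher with BV than without it, and in 9 the mean of 4A+ was. The count for hmox1 is also favoured by the choice of genes with high values in hmox1 with BV.

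**Figure D2:**
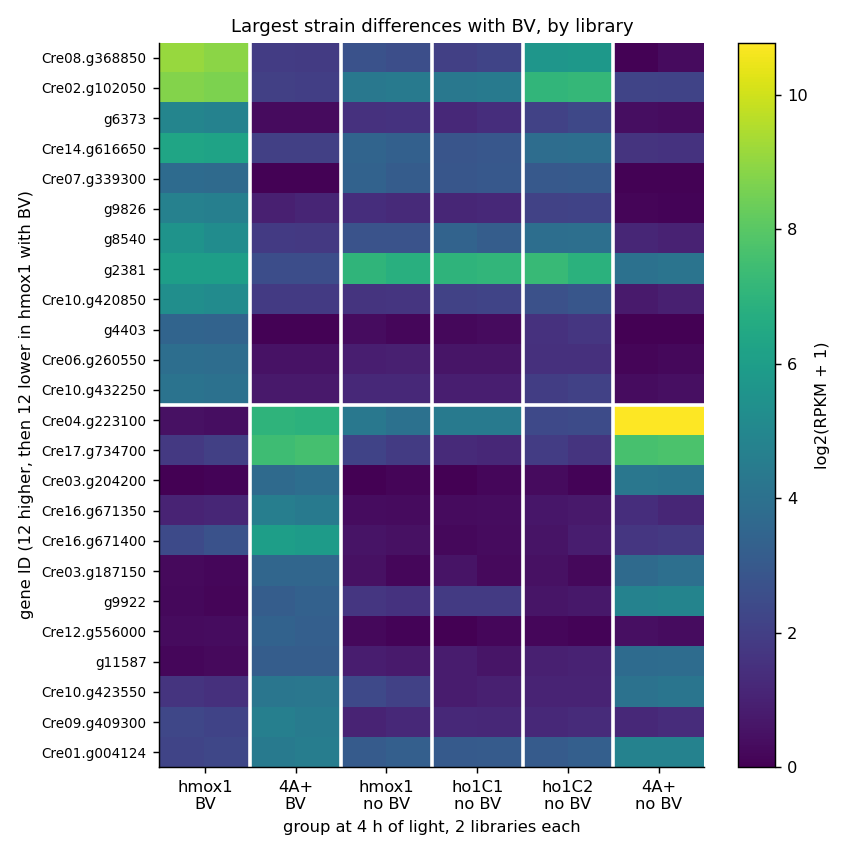
Log2(RPKM + 1) of the 12 largest higher and 12 largest lower genes (rows) in single libraries (columns) at 4 h, brighter where higher, in groups running from hmox1 with BV to 4A+ without BV. All 12 higher genes but g2381 are brightest in hmox1 with BV, while Cre04.g223100, Cre17.g734700 and Cre03.g204200 are high in all 4 libraries of 4A+ and lower in every library of hmox1 and the complemented lines.

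The genes lower in hmox1 were led by a group that was low in the mutant with or without bilin. Cre04.g223100 had 0.41 and 0.31 RPKM in hmox1 with BV, against 128 and 119.6 RPKM in 4A+ with BV, a log2 difference of −6.52 (SE 0.09, limma adjusted p = 2.05e-19). Without BV it had 18.7 and 15.3 RPKM in hmox1 and 1754 and 1728 RPKM in 4A+, a difference of −6.60. The level was more than 10 times lower with BV than without it in both strains, and the test of a change in the strain difference gave 0.08 (limma adjusted p = 0.673), but −1.41 with a pseudocount of 0.1 RPKM and 1.73 with 5 RPKM, both called.

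Cre17.g734700 hardly varied with BV. It was at 2.42 and 3.06 RPKM in hmox1 with BV, against 171 and 193 RPKM in 4A+ with BV (log2 difference −5.62, SE 0.12, limma adjusted p = 2.42e-16). Without BV it was at 3.44 and 2.68 RPKM in hmox1 and at 199.7 and 208 RPKM in 4A+, a difference of −5.66. Cre03.g204200 was listed at 0 and at 0.08 RPKM in hmox1 with BV, against 12.4 and 13.9 RPKM in 4A+ with BV, and without BV at 0 and 0.10 RPKM in hmox1 and 18.6 and 17.1 RPKM in 4A+. For both genes all hmox1 libraries lay below all 4A+ libraries, and a change of the strain difference was not called for Cre17.g734700 (0.05, limma adjusted p = 0.865) and was called for Cre03.g204200 (0.40, limma adjusted p = 0.0254). The call for Cre03.g204200 was lost in the fit on the 8 libraries of the strains at 4 h (0.0728), with quantile scaling, with a pseudocount of 0.1 RPKM, and without 1 of several libraries (limma adjusted p = 0.0862 to 0.109). Cre03.g187150, g9922 and g11587 were likewise lower in hmox1 in both conditions, with log2 differences of −3.32, −3.07 and −2.94 with BV and −3.52, −3.16 and −2.98 without it.

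Other lower genes stood out because 4A+ was high with BV. Cre16.g671350 and Cre16.g671400 are listed next to each other. Cre16.g671350 was at 1.11 and 1.23 RPKM in hmox1 with BV, against 23.7 and 20.7 RPKM in 4A+ with BV, and without BV at 0.28 and 0.24 RPKM in hmox1 and 1.67 and 1.25 RPKM in 4A+. Cre16.g671400 was at 4.36 and 5.66 RPKM in hmox1 with BV, against 64.0 and 59.6 RPKM in 4A+ with BV, and without BV at 0.48 and 0.41 RPKM in hmox1 and 2.24 and 2.41 RPKM in 4A+. Both strains had more of each transcript with BV, and 4A+ reached the higher level.

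Cre12.g556000 had 0.24 and 0.29 RPKM in hmox1 with BV, against 9.58 and 8.73 RPKM in 4A+ with BV, and without BV 0.18 and 0.09 RPKM in hmox1 and 0.37 and 0.29 RPKM in 4A+. Cre09.g409300 had 3.93 and 3.55 RPKM in hmox1 with BV, against 24.1 and 21.6 RPKM in 4A+ with BV, and without BV 1.12 and 1.35 RPKM in hmox1 and 1.38 and 1.56 RPKM in 4A+. For these genes the strains were close together without BV, with log2 differences of −0.23 and −0.15, and far apart with it, at −3.0 and −2.33. Among the 12 genes with the largest negative differences, 11 were also called lower without BV, 9 of them by 2-fold. The strain difference was further from 0 with BV in 6, closer to 0 in 1, Cre03.g204200, and not called as changed in 5.

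Among abundant genes past 2-fold, Cre09.g396100 had the highest level of the higher group. It stood at 1377 and 1438 RPKM in hmox1 with BV, against 213 and 222 RPKM in 4A+ with BV, and without BV at 323 and 322 RPKM in hmox1 and 59.98 and 59.6 RPKM in 4A+. The level was higher with BV in both strains, and the log2 strain difference was 2.69 with BV and 2.41 without it, a change of 0.28 (limma adjusted p = 0.0179). That call was lost with quantile scaling (0.16, limma adjusted p = 0.178) and without replicate 1 of 4A+ with BV, replicate 1 of 4A+ without BV or replicate 2 of hmox1 with BV (limma adjusted p = 0.0515 to 0.0689). Cre03.g160300 was at 709 and 688 RPKM in hmox1 with BV, against 321 and 309 RPKM in 4A+ with BV (log2 difference 1.14).

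Cre07.g323800 was the most abundant of the lower genes. It had 617 and 699 RPKM in hmox1 with BV, against 1787 and 1772 RPKM in 4A+ with BV, and without BV 793 and 621 RPKM in hmox1 and 2293 and 2185 RPKM in 4A+. The log2 differences of −1.44 with BV and −1.67 without it were not called as different from each other (0.24, limma adjusted p = 0.152). They were called different after median-ratio scaling (0.40, limma adjusted p = 0.0361), after quantile scaling (0.72, limma adjusted p = 0.000427) and without replicate 1 of hmox1 without BV (0.41, limma adjusted p = 0.00209). Cre17.g700750 had 325 and 351 RPKM in hmox1 with BV, against 1079.5 and 1089 RPKM in 4A+ with BV, and without BV 406 and 305 RPKM in hmox1 and 524 and 546 RPKM in 4A+. Its strain difference was −1.68 with BV and −0.60 without it, and the 4A+ libraries with BV were the high ones. Cre10.g452800 had 187 and 190.2 RPKM in hmox1 with BV, against 383 and 379 RPKM in 4A+ with BV, and without BV 506 and 532 RPKM in hmox1 and 1297 and 1355 RPKM in 4A+, so that both strains were lower with BV.

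The strain difference without BV rests on libraries whose levels do not enter the difference with BV. They do enter the spread per gene and the filter, which all 20 libraries share. At any size 7418 genes (53.5%) were called higher and 1632 (11.8%) lower without BV, but 4341 and 4033 after median-ratio scaling, and 3594 and 4193 after quantile scaling. By 2-fold 978 genes (7.05%) were higher and 111 (0.8%) were lower in hmox1 than in 4A+, and 543 and 226 after median-ratio scaling. Of the 540 genes higher with BV, 290 (53.7%) were also higher without BV by 2-fold, 198 were called higher by less than that, 44 were not called and 8 were called lower. Their median log2 difference without BV was 1.07, with an interquartile range of 0.59 to 1.51, against 0.24 for all genes tested. Of the 138 genes lower with BV, 41 (29.7%) were also lower without BV by 2-fold, 55 were called lower by less, 24 were not called and 18 were called higher. Their median without BV was −0.62, with an interquartile range of −1.07 to −0.05. As shares of the lists without BV, the common genes were 29.7% of the 978 higher and 36.9% of the 111 lower genes.

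**Figure D3:**
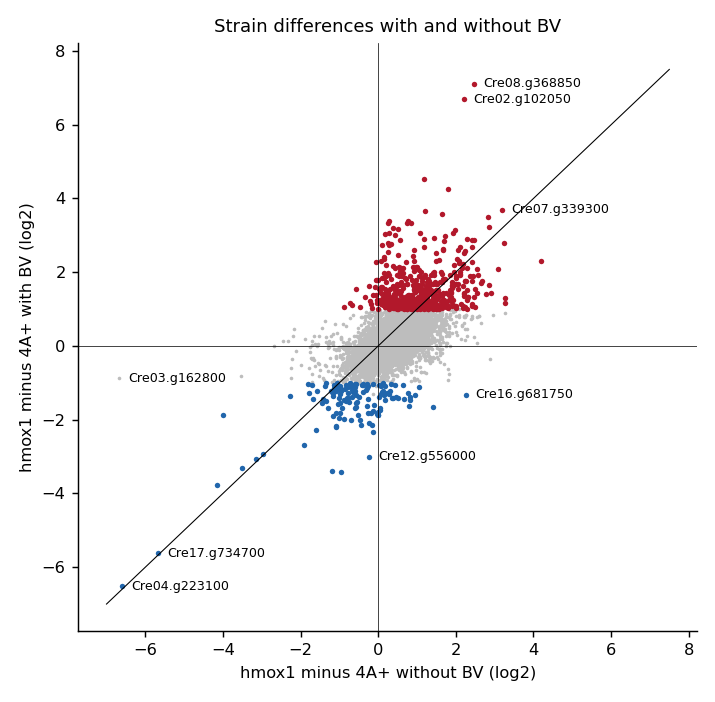
Log2 strain difference (hmox1 minus 4A+, on log2(RPKM + 1)) with BV on the vertical axis against that without BV on the horizontal axis, for each tested gene. The 540 higher genes lie mostly right of 0 without BV and the 138 lower genes are spread from well below 0 to 2.27 above it, the value of Cre16.g681750.

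Read in the other direction, most of the 978 genes higher in hmox1 without BV were still higher with BV. With BV 764 of them were called higher (78.1%, against 34.9% of all genes tested), 290 of these by 2-fold (29.7%, against 3.89%). Another 176 were not called and 38 were called lower (3.89%, against 15%). After median-ratio scaling 685 of the 978 were called higher and 63 lower, against 3403 and 3671 of all 13871. The median log2 difference of the 978 genes with BV was 0.67, against 0.10 for all genes. Of the 111 genes lower without BV, 74 were called lower with BV (66.7%, against 15% of all), 41 of these by 2-fold (36.9%, against 0.995%). Another 26 were not called and 11 were called higher (9.91%, against 34.9%). After median-ratio scaling 82 were called lower and 4 higher. The median of the 111 genes with BV was −0.70. The medians of the same lists without BV, 1.27 and −1.38, were set by the choice of the genes.

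Whether the strain difference itself changed with BV was tested as an interaction over all 8 libraries of the 2 strains. Over all genes the difference moved up with BV in 1115 (8.04%) and down in 3540 (25.5%), and by 2-fold it moved up in 193 (1.39%) and down in 409 (2.95%). The lean downward depended on the scaling, since 2155 moved up and 2289 down after median-ratio scaling, and 2000 and 2109 after quantile scaling. At 2-fold these counts were 236 up and 301 down, and 255 up and 250 down. Among the 540 higher genes the difference moved up in 268, 122 of these by 2-fold, and down in 73, and it was not called as changed in 199. Among the 138 lower genes it moved down in 100, 56 of these by 2-fold, and up in 7, and it was not called as changed in 31. The libraries with BV enter this test and also chose the genes, so these counts describe the lists and do not bear on their direction.

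The classes differed in level. The 122 higher genes whose difference moved up by 2-fold had median levels of 8.30 RPKM in hmox1 with BV and 0.780 RPKM in 4A+ with BV, and without BV of 1.38 RPKM in hmox1 and 0.425 RPKM in 4A+. They were low in 4A+ under both conditions and high in hmox1 with BV. The class was chosen on these same libraries, which favours a high level in hmox1 with BV. The 199 higher genes with no called change had medians of 6.17 RPKM in hmox1 with BV and 1.72 RPKM in 4A+ with BV, and without BV of 5.24 RPKM in hmox1 and 0.945 RPKM in 4A+. For the 56 lower genes whose difference moved down by 2-fold, the medians were 2.54 RPKM in hmox1 with BV and 10.2 RPKM in 4A+ with BV, and without BV 1.87 RPKM in hmox1 and 2.34 RPKM in 4A+. In that class 4A+ with BV was the high group, which the choice of the class likewise favours.

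**Figure D4:**
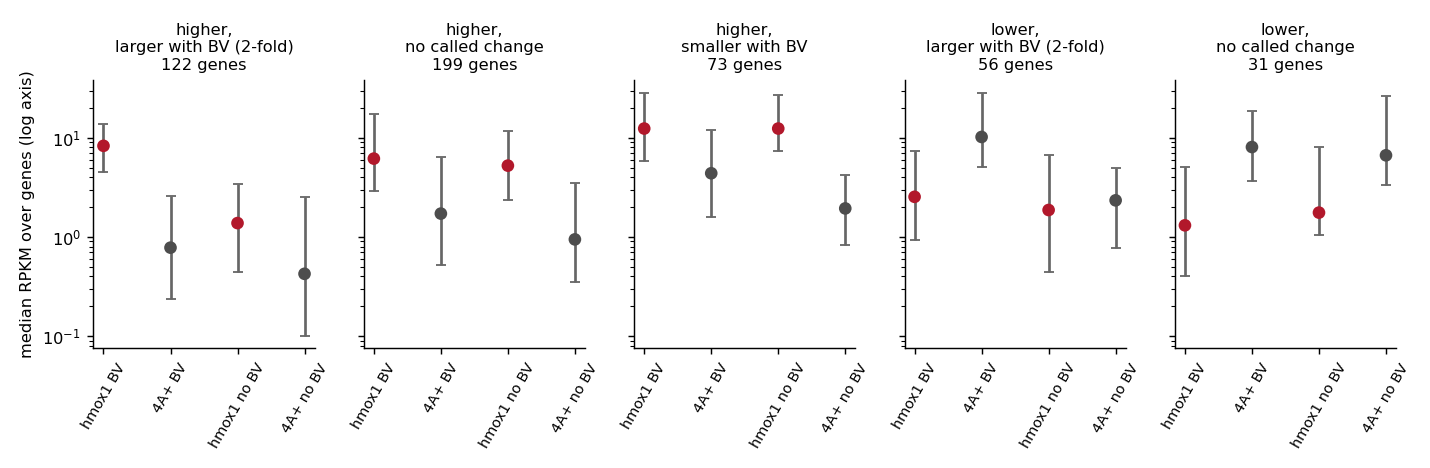
Median RPKM over the genes of each class (log axis) in hmox1 with BV, 4A+ with BV, hmox1 without BV and 4A+ without BV, with bars for the interquartile range over genes. Genes whose strain difference moved up by 2-fold are highest in hmox1 with BV, at a median of 8.30 RPKM, and those whose difference moved down by 2-fold are highest in 4A+ with BV, at a median of 10.2 RPKM. The classes were chosen on these same libraries, which favours both positions.

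In 3 genes the strain difference passed 2-fold in opposite directions, and these were named after their values were seen. Cre12.g502600 averaged 13.8 RPKM in hmox1 with BV and 45.5 RPKM in 4A+ with BV, and without BV 14.9 RPKM in hmox1 and 4.94 RPKM in 4A+. The level in hmox1 was about the same in both conditions, while that in 4A+ was high with BV. Cre16.g681750 averaged 5.15 RPKM in hmox1 with BV and 14.4 RPKM in 4A+ with BV, and without BV 17.1 RPKM in hmox1 and 2.75 RPKM in 4A+, so that the strains moved in opposite directions. Cre09.g408000 averaged 5.81 RPKM in hmox1 with BV and 13.6 RPKM in 4A+ with BV, and without BV 8.13 RPKM in hmox1 and 3.38 RPKM in 4A+. The changes of the log2 strain difference were −3.07, −3.59 and −2.16. No gene higher by 2-fold with BV was lower by 2-fold without it.

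The largest upward change of the strain difference belonged to Cre03.g162800. It stood at 0.11 and 0.02 RPKM in hmox1 with BV, against 1.15 and 0.75 RPKM in 4A+ with BV, and without BV at 1.49 and 1.32 RPKM in hmox1 and 241 and 251 RPKM in 4A+. The log2 strain difference was −0.87 with BV and −6.68 without it, and only 4A+ without BV was high. With a pseudocount of 0.1 RPKM the difference with BV was −2.70. Cre13.g566850 had 6.39 and 4.68 RPKM in hmox1 with BV, against 7.78 and 6.90 RPKM in 4A+ with BV, and without BV 44.6 and 36.7 RPKM in hmox1 and 4.58 and 4.64 RPKM in 4A+. Here only hmox1 without BV was high, and the difference was −0.36 with BV and 2.89 without it.

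The complemented lines, which descend from hmox1 by their labels and were sampled without BV, shared a part of the differences seen with BV. Against 4A+ without BV, 457 genes (3.29%) were higher by 2-fold in both ho1C1 and ho1C2 and 68 (0.49%) were lower in both. The lines were set against the same 4A+ libraries, none of which belong to the comparison with BV. Of the 540 genes higher in hmox1 with BV, 197 (36.5%) were higher by 2-fold in both lines, 82 in a single line and 261 in neither. Their median log2 difference was 0.84 in ho1C1 and 0.93 in ho1C2, against 0.18 for all genes in each line. Of the 138 lower genes, 33 (23.9%) were lower by 2-fold in both lines, 19 in a single line and 86 in neither, with medians of −0.65 in ho1C1 and −0.62 in ho1C2. The common genes were 43.1% of the 457 and 48.5% of the 68.

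Line by line, ho1C1 was higher than 4A+ by 2-fold in 558 genes (4.02%) and lower in 87 (0.627%), and ho1C2 was higher in 790 (5.7%) and lower in 113 (0.815%). After median-ratio scaling these counts were 386 and 133 for ho1C1 and 542 and 199 for ho1C2. Of the 540 genes, 229 (42.4%) were among those higher in ho1C1 and 247 (45.7%) among those higher in ho1C2. Another 248 and 242 were called higher by less than 2-fold, and 8 and 12 were called lower. Calls of less than 2-fold were common among all genes too. At any size 6038 of all 13871 genes were called higher in ho1C1 and 6249 in ho1C2, and 1354 and 1576 lower. After median-ratio scaling 3507 and 3655 of all genes were called higher. Of the 138 genes, 40 (29.0%) were among those lower in ho1C1 and 45 (32.6%) among those lower in ho1C2.

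**Figure D5:**
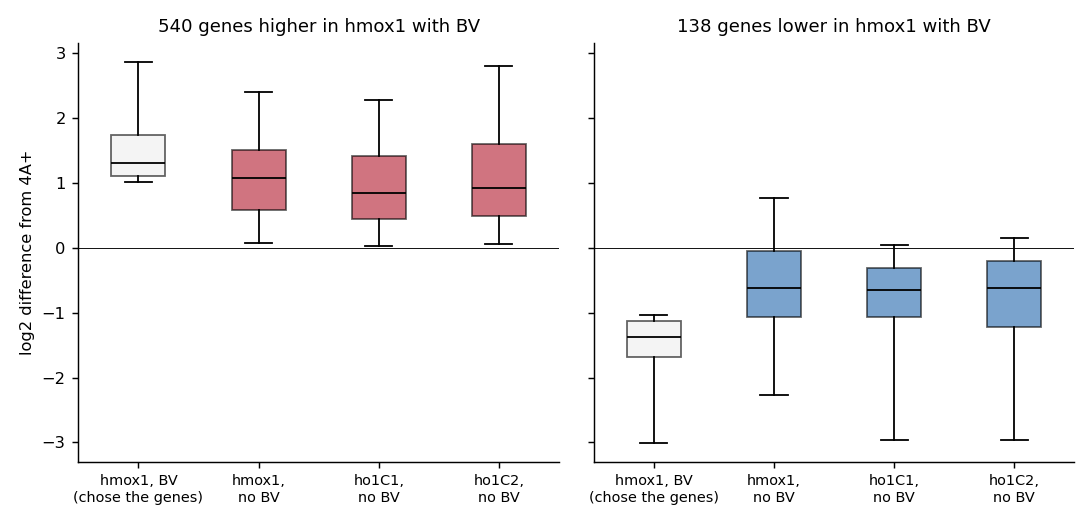
Log2 differences of the 540 higher and the 138 lower genes, in hmox1 against 4A+ with BV, in hmox1 against 4A+ without BV, and in ho1C1 and ho1C2 against 4A+ without BV, with boxes for the quartiles and lines for the medians. The genes were chosen in the comparison with BV, where they lie beyond 1 or −1 by choice, and outside it their medians are 1.07, 0.84 and 0.93 for the higher genes and −0.62, −0.65 and −0.62 for the lower genes.

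Some named genes kept their difference from 4A+ in the complemented lines. Cre17.g734700 was at 1.42 and 1.28 RPKM in ho1C1 and 2.78 and 2.12 RPKM in ho1C2, against 199.7 and 208 RPKM in 4A+ without BV, and it thus stayed as low as in hmox1. Cre07.g339300 was at 6.29 and 6.74 RPKM in ho1C1 and 7.03 and 7.25 RPKM in ho1C2, a little below its level in hmox1 without BV. Cre12.g502600 averaged 1.52 RPKM in ho1C1 and 1.25 RPKM in ho1C2, below both 4A+ and hmox1 without BV. Its log2 differences from 4A+ without BV were −1.24 in ho1C1 and −1.40 in ho1C2. Both lines were thus lower than 4A+ by 2-fold, as hmox1 was with BV, whereas hmox1 without BV was higher than 4A+.

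Cre02.g102050 and Cre08.g368850 stood apart between the lines. Cre02.g102050 was at 136 and 144 RPKM in ho1C2 and at 19.1 and 19.8 RPKM in ho1C1. Cre08.g368850 was at 50.2 and 52.5 RPKM in ho1C2 and at 3.17 and 3.58 RPKM in ho1C1. For both genes ho1C1 was near hmox1 without BV, and ho1C2 lay between hmox1 without BV and hmox1 with BV. Of the 12 genes with the largest positive differences, 8 passed 2-fold against 4A+ in ho1C1 and 12 in ho1C2. In 8 of the 12 both ho1C2 libraries were above both ho1C1 libraries in the dark, after 0.5 h and after 4 h of light, against 172 of all 540 higher genes, 4 of the 12 genes with the largest negative differences and 1374 (9.91%) of all genes tested. That count was made after the values were seen, and the difference between the lines was not tested.

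Genes called and changed at least 2-fold the same way by light in both complemented lines were followed in the comparison with BV. The log2 differences of that comparison use none of those libraries, though its p-values share their spread per gene. After 4 h of light 539 genes were above and 721 below their dark level in both lines. In hmox1 against 4A+ with BV, 82 of the 539 were higher (15.2%, against 34.9% of all genes tested) and 235 were lower (43.6%, against 15%). Their median log2 difference was −0.17 with BV, against 0.10 for all genes, and −0.31 after median-ratio scaling. Without BV their median was 0.06, against 0.24 for all genes, and −0.25 after median-ratio scaling, against 0.01 for all genes. Its sign thus depended on the scaling there, while it lay below the median of all genes under both. Of the 721 genes, 334 were higher (46.3%) and 126 lower (17.5%) in hmox1 with BV, with a median of 0.20, or 0.09 after median-ratio scaling. In the same list 74 genes were higher by 2-fold with BV (10.3%, against 3.89% of all tested). Without BV the median of the 721 genes was larger, at 0.51, against 0.24 for all genes. After median-ratio scaling it was 0.34 without BV, against 0.01 for all genes.

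The lists set at 0.5 h of light were read in the same way. Of 843 genes above their dark level at 0.5 h in both lines, 415 were higher (49.2%) and 109 lower (12.9%) in hmox1 with BV, with a median of 0.19, or 0.06 after median-ratio scaling. Of 1813 genes below it, 593 were higher (32.7%) and 338 lower (18.6%), with a median of 0.09, or −0.03 after median-ratio scaling. Over all genes tested, 34.9% were higher and 15% lower, with a median of 0.10, or −0.02 after median-ratio scaling. By these measures the 1813 genes stood close to all genes tested, but not by 2-fold. Of them 102 were higher (5.63%, against 3.89% of all) and 34 lower (1.88%, against 0.995%) by 2-fold with BV. Of the 843 genes, 49 were higher (5.81%) and 15 lower (1.78%) by 2-fold. Without BV the medians of the 843 and 1813 genes were 0.36 and 0.36, against 0.24 for all genes. After median-ratio scaling they were 0.07 and 0.16, against 0.01.

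Genes close to each other in the v5.5 gene order differed together in a few places. Among 7440 pairs of tested genes in adjacent places of that order, both members were higher by 2-fold in 35 pairs and lower in 10, and they went in opposite directions in 5. Cre10.g443950, Cre10.g444000, Cre10.g444100 and Cre10.g444150 were 4 tested genes in succession, the longest run, and lay within 7 places of the order, with untested or unmatched genes between some of them. They had means of 31.5, 109, 17.6 and 32.7 RPKM in hmox1 with BV and 7.60, 17.0, 4.62 and 7.98 RPKM in 4A+ with BV. All 4 were also higher in hmox1 without BV, at means of 16.5, 35.95, 11.5 and 16.5 RPKM, against 5.86, 10.5, 3.13 and 2.25 RPKM in 4A+ without BV. Cre13.g569000, Cre13.g569050 and Cre13.g569150, tested genes in succession within 4 places, averaged 9.26, 4.07 and 3.55 RPKM in hmox1 with BV, against 0.305, 0.210 and 0.230 RPKM in 4A+ with BV. A further run of 3, Cre06.g269950, Cre06.g270000 and Cre06.g270050, averaged 172, 3.29 and 1.70 RPKM in hmox1 with BV, against 83.4, 0.785 and 0.175 RPKM in 4A+ with BV. The sources used here do not say whether reads of near-identical neighbours were split or shared in the authors' counting.

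In 5 genes both 4A+ libraries with BV were listed at 0 while the hmox1 mean reached 1.12 to 2.13 RPKM, and no gene showed the reverse. At the depth of these libraries such levels rest on few reads, and no fold is given for them. These genes are not a separate set of differences. Among them g8541 and g11219 (limma adjusted p = 0.0189 and 0.0068) already count among the genes higher by 2-fold with BV. Cre09.g415100 and Cre16.g654050 were not called as differing with BV (limma adjusted p = 0.106 and 0.0814). Cre09.g415100 also stood at 2.49 RPKM in replicate 2 of 4A+ without BV.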

How the data were processed

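Cultures were sequenced as single-end RNA-seq libraries, 20 in 10 groups of 2. The tools named per the submitters' processing notes are STAR 2.3.0 and HTSeq, while roles, build and annotation are not stated in the material used here. The table deposited by the authors holds RPKM, a unit inferred from its values, since neither header nor labels name it. Relative depth came from low values being whole multiples of a step per gene and library (1231 values of 147 genes, 99.8% within 0.1 read of a whole number, against 44.6% with the factors shuffled). Factors ran from 0.62 to 2.01. Absolute depth is unknown, so no counting interval is given.

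Differences were tested with limma 3.58.1 (R 4.3.3), with trended and robust moderation, on values transformed as log2(RPKM + 1). The model had a term for each group, took in all 20 libraries and left 10 degrees of freedom for the residual. A gene was tested if 2 or more libraries reached 1 RPKM, which held for 13871 of 17737. Adjusted p-values are Benjamini-Hochberg with a threshold of 0.05. Fold changes on this scale understate those of weakly expressed genes. The fit was tested on simulated data.

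Named genes are the 12 largest differences in each direction at 2-fold with no overlap and with the higher group averaging 1 RPKM or above, the 4 most abundant in each direction, the 3 longest neighbour runs, the 3 largest interactions in each direction and a few singled out afterwards. The comparison and the lists were chosen with earlier results of these data known. The RefSeq table of assembly Chlamydomonas_reinhardtii_v5.5 matched 11713 IDs and gave no symbols beyond locus tags, so lists planned by gene name are not analysed here, and it served only for gene order. Alternatives covered scaling, pseudocount, filter, samples in the fit, a replicate block and leaving out each library.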

Additional observations from a re-analysis of the deposited data

Results flagged for a closer look

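For 24 named genes the strain difference (hmox1 minus 4A+) changed by 2-fold or more between cultures with and without BV, by limma's test of the interaction. Values here are the log2 strain difference with BV minus that without BV, on log2(RPKM + 1). Many of these genes were named for a large difference with BV, which favours a change in that direction.

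The change was upward for Cre03.g162800 (5.82), Cre08.g368850 (4.64), Cre02.g102050 (4.48), g6373 (3.33), g4403 (3.12), Cre10.g420850 (2.62), Cre06.g260550 (2.59), Cre10.g432250 (2.49), Cre14.g616650 (2.47), g9826 (2.45) and g8540 (1.93). It was also upward for the nearby genes Cre13.g569000 (1.25), Cre13.g569150 (1.07) and Cre13.g569050 (1.01) and for Cre06.g270000 (1.13). With a pseudocount of 0.1 RPKM the call was lost for Cre13.g569150 (0.53, limma adjusted p = 0.157), Cre13.g569050 (0.66, limma adjusted p = 0.059) and Cre08.g368850 (2.82, limma adjusted p = 0.0559). The change was downward for Cre16.g681750 (−3.59), Cre13.g566850 (−3.25), Cre12.g502600 (−3.07), Cre12.g556000 (−2.77), Cre16.g671350 (−2.46), Cre16.g671400 (−2.19), Cre09.g409300 (−2.18), Cre09.g408000 (−2.16) and Cre17.g700750 (−1.08). In Cre03.g162800 the upward value came with a strain difference of −0.87 with BV and −6.68 without it, so the strains were closer together with BV on this scale.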

How the results depend on the processing

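None of the 540 higher and 138 lower genes passed 2-fold in the opposite direction under any alternative run. Of these genes 414 and 138 were still past 2-fold after median-ratio scaling, 389 and 137 after quantile scaling, and 175 and 50 with a pseudocount of 5 RPKM. With a pseudocount of 0.1 RPKM 1159 genes were higher and 264 lower, and with 5 RPKM 175 and 50. For the interaction the 2-fold counts were 1288 and 218 at these pseudocounts against 602, without BV 2457 and 338 against 1089, for ho1C1 1784 and 161 against 645, and for ho1C2 2143 and 224 against 903. Quantile scaling gave 638 genes without BV. The interaction of Cre04.g223100, g11587 and g9922, not called as reported, was called with a negative sign at −1.41, −0.96 and −1.60 with a pseudocount of 0.1 RPKM and with a positive sign at 1.73, 0.29 and 0.77 with 5 RPKM, so its sign depends on the pseudocount. Leaving out each library in turn gave 5480 to 5908 genes called with BV against 6923, 514 to 574 higher and 135 to 150 lower, 574 to 734 for the interaction, 1034 to 1255 without BV, 627 to 673 for ho1C1 and 922 to 938 for ho1C2. Same-numbered libraries deviated together only weakly (correlation 0.24 with BV, 0.14 without, −0.098 to 0.33 over 45 pairs of groups), and with 2 libraries a group neither these values nor the labels establish a pairing. With the replicate block 7218 genes were called, 541 higher and 138 lower by 2-fold. Fits on the 4 libraries with BV alone gave 538 higher and 138 lower. A minimum of 5 RPKM gave 420 and 106. Absolute depth is unknown, which limits genes near 0.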

Other observations

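The levels of 3 named genes over the light times are given here for the complemented lines, neither of which received BV. Cre02.g102050 had 176 and 178 RPKM in the dark in ho1C2, against 16.8 and 17.2 RPKM in ho1C1. After 0.5 h of light it had 165 and 164 RPKM in ho1C2, against 14.2 and 15.9 RPKM in ho1C1. Its level in each line was thus of similar size in the dark and in the light.

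Cre07.g339300 had nearly the same level in both lines at each time and changed with light. In ho1C2 it stood at 20.7 and 20.8 RPKM in the dark, 1.99 and 1.84 RPKM after 0.5 h and 7.03 and 7.25 RPKM after 4 h. In ho1C1 it stood at 19.5 and 18.3 RPKM in the dark, 2.08 and 1.80 RPKM after 0.5 h and 6.29 and 6.74 RPKM after 4 h. Cre04.g223100, in contrast, was under 1 RPKM in the dark and after 0.5 h in all libraries of both lines, and after 4 h it stood at 4.15 and 4.59 RPKM in ho1C2, against 21.0 and 20.3 RPKM in ho1C1.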
